A study of Bos indicus with 12 samples.

Results

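The transcripts of 10 dendritic cell genes were followed in the blood of 12 cows: FLT3, the lineage transcription factors IRF8, TCF4, SPIB, ZBTB46 and BATF3, the surface receptors XCR1 and CLEC9A, and LAMP3 and CCR7, which mark maturation. They were chosen by symbol for their role in dendritic cells, with earlier results of these data known. All 10 were found among the 26229 gene identifiers counted. Of these, 9 passed the filter on low counts and were tested with 15420 genes in all, while CLEC9A did not and is given by its counts. The cows were zebu (Bos indicus) females of the Gir and Shweta Kapila breeds, in the second or the third lactation, and the study sorted the cows of each breed into high and low milk yield from lactation records. There were therefore 4 groups of 3 cows each: high-yielding Gir, low-yielding Gir, high-yielding Shweta Kapila and low-yielding Shweta Kapila. No treatment or engineered allele is named in the labels. Each library came from a different cow, so the errors below are the spread between cows.

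Dendritic cells capture antigen and present it to T cells. The conventional type 1 cells, which depend on IRF8 and BATF3 and carry XCR1 and CLEC9A, are known for presenting antigen to CD8 T cells, and the plasmacytoid cells, which depend on TCF4, are known for secreting type I interferon. Dendritic cells are a small share of blood leukocytes, and several of these genes are also transcribed in more frequent blood cells: SPIB, IRF8 and TCF4 in B cells, and CCR7 in naive T cells.

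The labels name peripheral blood mononuclear cells, but the RNA kit they name is one for whole blood, and markers of granulocytes and platelets were present in every library. CSF3R, a neutrophil receptor, lay between 479 and 2147 CPM (counts per mega-count of the effective library size), and the summed platelet markers between 281 and 573 CPM. Library totals ran from 14.2 to 27.2 mega-counts, so that 10 counts, the filter's minimum, stood for 0.704 CPM at the lowest depth and 0.368 CPM at the highest. Some counts fell on 37 identifiers of 7 or 8 digits, shorter than the others and likely those of the mitochondrial genome, which was not checked. Their share ran from 4.54% to 13.1% and is given below where it moved with a gene. In bulk blood, fewer cells of a type and less RNA per cell cannot be told apart. Counts were not divided by transcript length, so levels are compared between cows and not between genes.

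FLT3 is the receptor for FLT3 ligand, the growth factor that drives dendritic cell development from bone marrow progenitors. In the high-yielding Gir cows FLT3 stood at 7.14, 6.03 and 9.71 CPM, and in the low-yielding Gir cows at 6.24, 4.77 and 5.92 CPM. The high-yielding Shweta Kapila cows had 2.91, 2.03 and 4.18 CPM, and the low-yielding ones 7.83, 6.62 and 3.20 CPM. The high-yielding Shweta Kapila cows were thus the lowest group and lay below all 6 Gir cows, but 1 low-yielding cow of their own breed reached into their range. The share of all genes separated from the Gir cows in this way was not counted. The group means were 7.63 ± 1.88, 5.65 ± 0.773, 3.04 ± 1.08 and 5.88 ± 2.40 CPM in that order (SD, n = 3 each). Within Shweta Kapila the high-minus-low difference was -0.95 ± 0.39 log2 units (SE, unadjusted p = 0.0316), which did not pass edgeR's quasi-likelihood test after Benjamini-Hochberg adjustment over all genes (adjusted p = 0.655). In Gir the same difference was 0.43 ± 0.39, so the yield difference in Gir minus that in Shweta Kapila was 1.38 ± 0.55 (unadjusted p = 0.0266, edgeR adjusted p = 0.955).

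FLT3 also moved with the share of counts on 7- and 8-digit identifiers. That share was 4.54%, 4.72% and 9.00% in the high-yielding Shweta Kapila cows and 13.1%, 11.7% and 5.57% in the low-yielding ones. Over the 6 Shweta Kapila cows FLT3 and the share had r = 0.964 (exact permutation p = 0.00278, adjusted p = 0.0938 over 45 relations of a gene with a library property or marker list) and rho = 0.943 (exact permutation p = 0.0167, adjusted p = 0.188). Without the 2 cows farthest from the median share r was 0.813, and over the 6 Gir cows it was 0.528 (exact permutation p = 0.296, adjusted p = 0.828). With the share as a covariate the FLT3 yield difference in Shweta Kapila was -0.22 in place of -0.95. FLT3LG, which encodes the ligand and is transcribed in many blood lymphocytes, had the opposite sign. Its mean in Shweta Kapila was 68.9 ± 49.0 CPM at high yield and 26.2 ± 17.6 CPM at low yield (SD, n = 3 each), a difference of 1.39 ± 0.56 (SE, unadjusted p = 0.0275, edgeR adjusted p = 0.655). In Gir, the FLT3LG means were closer than their spread, at 33.2 ± 5.55 CPM (high) and 35.7 ± 14.3 CPM (low).

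TCF4 encodes the E protein that plasmacytoid dendritic cells need, and it separated the Shweta Kapila groups. The high-yielding Shweta Kapila cows had 57.7, 56.0 and 104 CPM and the low-yielding ones 141, 196 and 211 CPM. Every high-yielding cow lay below every low-yielding cow of this breed, a separation in that direction seen in 3.7% of all genes tested. The high-yielding Gir cows had 111, 118 and 121 CPM and the low-yielding Gir cows 84.0, 134 and 222 CPM, and these 2 groups overlapped. The low-yielding Gir cows were the more spread group, at 147 ± 69.9 against 116 ± 5.26 CPM (SD, n = 3 each). The difference in Shweta Kapila was -1.33 ± 0.35 log2 units (SE, unadjusted p = 0.00238), with an edgeR adjusted p of 0.575. In Gir it was -0.33 ± 0.34 (edgeR adjusted p = 1), and over both breeds -0.83 ± 0.24 (unadjusted p = 0.00508, edgeR adjusted p = 0.874), with the high-yielding cow above the low-yielding one in 4 of 36 pairs. The yield difference in Gir minus that in Shweta Kapila was 1.00 ± 0.49 (unadjusted p = 0.0622, edgeR adjusted p = 0.955).

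T cell and cytotoxic cell markers stood on the other side from TCF4. The 14 summed T cell markers were 5876, 5304 and 4321 CPM in high-yielding and 3966, 3173 and 2413 CPM in low-yielding Shweta Kapila cows, without overlap, and 2205 to 3630 CPM in Gir. The 8 summed NK and cytotoxic markers were also apart in Shweta Kapila, at 965 to 1957 CPM against 658 to 880 CPM, and none of the 8 was at 0. The share of all single genes apart in this direction was not counted. At high yield in this breed 7 of 14 T cell markers and 5 of 8 NK markers were higher at an unadjusted p under 0.05. Of all genes, 6.98% had such a p in either direction. Among the NK markers was PRF1, perforin, higher by 1.67 ± 0.36 (SE, unadjusted p = 0.000491, edgeR adjusted p = 0.575). The other way went 2 of the 8 NK markers, EOMES (-0.37 ± 0.26) and KLRK1 (-0.03 ± 0.80). Over the 12 cows TCF4 and the T cell markers had r = -0.784 (permutation p = 0.00288, adjusted p = 0.0511 over 36 relations of a gene with a list added after the data were seen) and rho = -0.727 (permutation p = 0.00971, adjusted p = 0.116), with r = -0.513 without the 2 cows farthest from the median. Within the breeds r was -0.515 in Gir and -0.948 in Shweta Kapila (exact permutation p = 0.293 and 0.00694, adjusted p = 0.685 and 0.125). The part of these cells in the TCF4 difference was not tested.

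SPIB, an ETS factor of plasmacytoid cells and of B cells, varied widely among the Shweta Kapila cows. The Gir cows had 184, 296 and 309 CPM at high yield and 255, 277 and 405 CPM at low yield. The Shweta Kapila cows had 199, 138 and 108 CPM at high yield and 67.0, 156 and 584 CPM at low yield. The low-yielding Shweta Kapila group thus held both the lowest and the highest of the 12 values, and no pair of groups compared for yield was separate. Its mean of 269 ± 276 CPM (SD, n = 3) against 149 ± 46.4 CPM gave a yield difference of -0.86 ± 0.59 (SE, edgeR adjusted p = 0.656). Without the third low-yielding cow the difference was 0.41, of the opposite sign. Gir cows had the higher SPIB level in 29 of 36 pairs with a Shweta Kapila cow, and the breed difference of 0.52 ± 0.41 did not pass (edgeR adjusted p = 0.685). Without that cow the breed difference was 1.15 (edgeR adjusted p = 0.0391). It held the highest SPIB value, so leaving it out widens this difference by construction, and the adjusted p is no separate test. Of all cows left out in turn, it also gave the most genes called by breed.

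IRF8, which is needed for type 1 conventional cells and is also transcribed in B cells and monocytes, overlapped between the yield groups of each breed. It stood at 47.2, 52.9 and 72.6 CPM in high-yielding Gir, 51.9, 31.8 and 47.3 CPM in low-yielding Gir, 46.5, 36.7 and 24.0 CPM in high-yielding Shweta Kapila and 26.8, 36.4 and 73.4 CPM in low-yielding Shweta Kapila. The high-yielding Gir cows lay just above the high-yielding Shweta Kapila cows, with 47.2 CPM as the lowest of the former and 46.5 CPM as the highest of the latter. The share of all genes with such a gap between these groups was not counted. The highest IRF8 value belonged to the same low-yielding Shweta Kapila cow as the highest SPIB value. The yield difference was 0.40 ± 0.38 in Gir and -0.35 ± 0.38 in Shweta Kapila (SE), with edgeR adjusted p = 1 and 0.736.

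**Figure D1:**
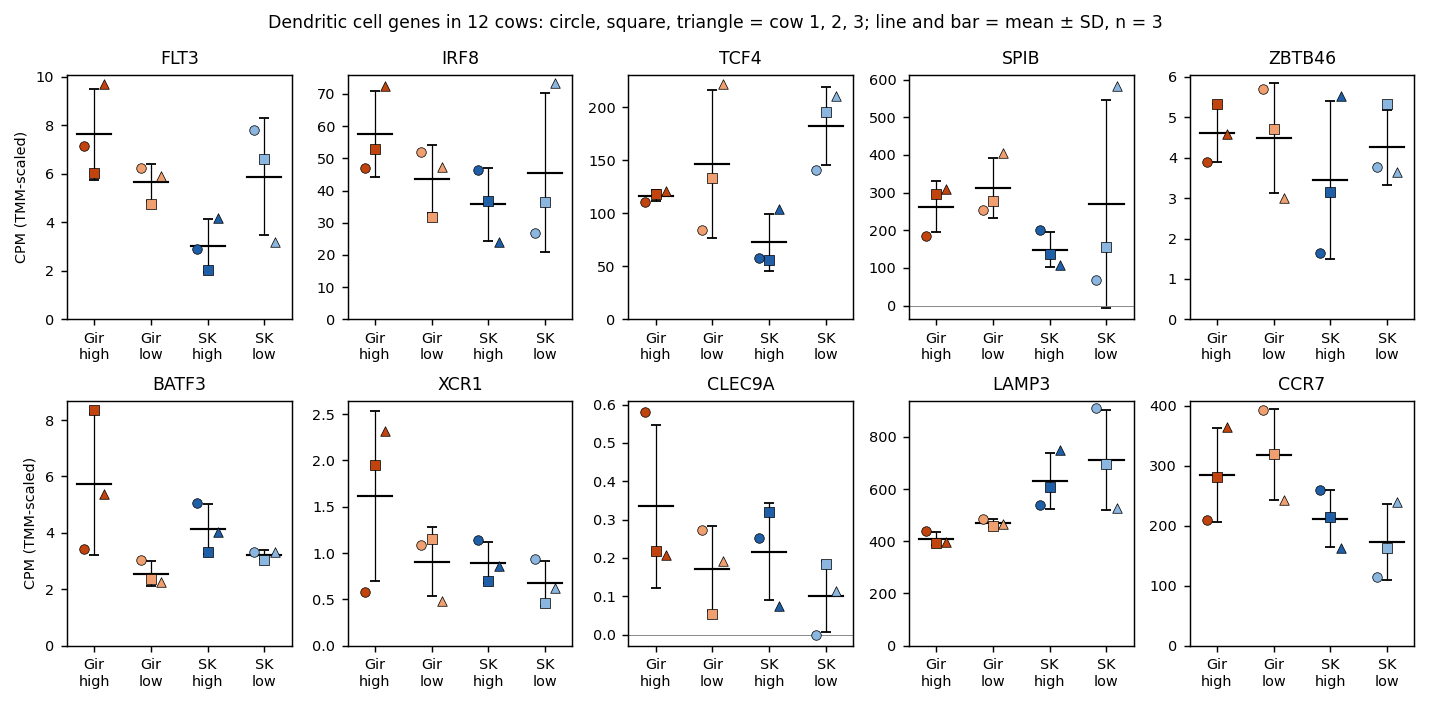
Level of each of the 10 genes in CPM (vertical axis, linear, a panel per gene with its own scale) in the 3 cows of each of 4 groups (horizontal axis, SK for Shweta Kapila). Symbols are cows and the line with its bar is the mean ± SD. The high-yielding Shweta Kapila cows hold the lowest group mean for FLT3, IRF8, TCF4, SPIB and ZBTB46, and LAMP3 is higher in all 6 Shweta Kapila cows (527 to 912 CPM) than in all 6 Gir cows (395 to 487 CPM).

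B cell markers moved with SPIB, and less closely with IRF8 and TCF4. Of 14 B cell marker symbols, 11 were matched and none was at 0 in any library. CD79A, a chain of the B cell receptor, ranged from 122 to 1085 CPM. The summed B cell markers were 1191, 1796 and 1774 CPM in high-yielding Gir, 1491, 1309 and 2425 CPM in low-yielding Gir, 993, 1002 and 875 CPM in high-yielding Shweta Kapila and 824, 1404 and 3304 CPM in low-yielding Shweta Kapila. The cow with the highest SPIB level thus also had the highest B cell marker sum, and the cow with the lowest SPIB level had the lowest sum.

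Over the 12 cows the mean log2 CPM of the B cell markers and SPIB had r = 0.907 (permutation p = 7e-05, adjusted p = 0.00315 over 45 relations) and rho = 0.909 (permutation p = 0.00011, adjusted p = 0.00495). Without the 2 cows farthest from the median, r was 0.836, and within the breeds it was 0.924 in Gir and 0.896 in Shweta Kapila (exact permutation p = 0.0167 and 0.0264, adjusted p = 0.494 and 0.148). IRF8 had r = 0.744 with the same markers (permutation p = 0.00576, adjusted p = 0.0864), rho = 0.832 (adjusted p = 0.0315), and r = 0.73 without 2 cows. Within the breeds it was 0.298 in Gir and 0.842 in Shweta Kapila (exact permutation p = 0.581 and 0.0417, adjusted p = 0.943 and 0.161). TCF4 had r = 0.63 (permutation p = 0.029, adjusted p = 0.145), which rested on the 2 cows farthest from the median, since r was 0.31 without them (rho = 0.517, permutation p = 0.088, adjusted p = 0.357). With the B cell markers as a covariate, the yield difference in Shweta Kapila was 0.68 for SPIB and 0.26 for IRF8, both of the opposite sign to the values without it, while for TCF4 it was -1.03 and for FLT3 -1.22.

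**Figure D2:**
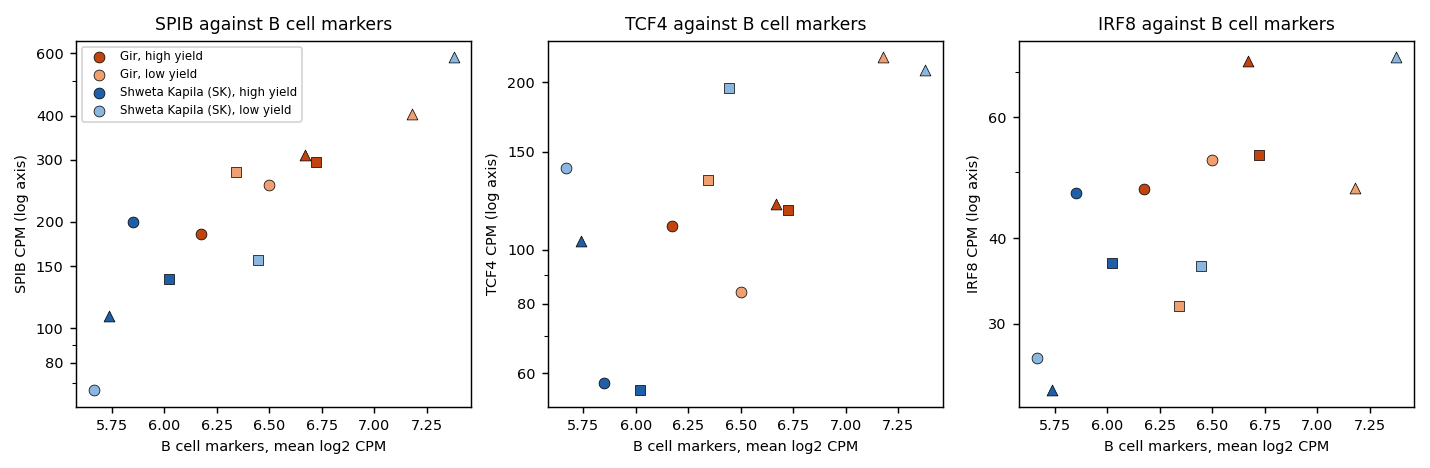
SPIB, TCF4 and IRF8 in CPM (vertical axes, logarithmic) against the mean log2 CPM of 11 B cell markers (horizontal axes), a point per cow, coloured by breed and yield (SK for Shweta Kapila). SPIB follows the markers closely over the 12 cows (r = 0.907), IRF8 less closely (r = 0.744) and TCF4 least (r = 0.63).

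ZBTB46, a zinc finger factor of conventional dendritic cells, did not differ beyond its spread. It stood at 3.89, 5.33 and 4.59 CPM in high-yielding Gir, 5.70, 4.72 and 3.01 CPM in low-yielding Gir, 1.65, 3.15 and 5.53 CPM in high-yielding Shweta Kapila and 3.78, 5.34 and 3.65 CPM in low-yielding Shweta Kapila. All 4 groups overlapped, and the largest of its differences in either breed was -0.30 ± 0.42 (SE), in Shweta Kapila (edgeR adjusted p = 0.796).

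BATF3, the AP-1 family factor that type 1 conventional cells need, was the member with the lowest unadjusted p in Gir. The high-yielding Gir cows had 3.43, 8.37 and 5.37 CPM and the low-yielding ones 3.05, 2.36 and 2.25 CPM. Each high-yielding Gir cow lay above each low-yielding one, with a narrow gap between 3.05 and 3.43 CPM, and 5.12% of all genes tested were separated in this direction. The Shweta Kapila cows had 5.06, 3.31 and 4.03 CPM at high yield and 3.33, 3.04 and 3.31 CPM at low yield, which overlapped. The difference was 1.17 ± 0.36 log2 units in Gir (SE, unadjusted p = 0.00701, edgeR adjusted p = 1) and 0.36 ± 0.36 in Shweta Kapila (edgeR adjusted p = 0.717). Over both breeds it was 0.76 ± 0.25 (unadjusted p = 0.0107, edgeR adjusted p = 0.874), and the high-yielding cow was the higher in 34 of 36 pairs. These levels rest on 45 to 154 counts a library.

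BATF3 varied with monocyte markers, of which 8 of 12 symbols were matched and none was at 0. The summed monocyte markers were 1985, 2109 and 1881 CPM in high-yielding Gir and 1408, 1295 and 1255 CPM in low-yielding Gir, which did not overlap. In this direction 5.12% of single genes tested were separated. The sums ran from 1003 to 2480 CPM in Shweta Kapila. S100A9 was a large part of the Gir sums, at 992 to 1183 CPM at high yield and 609 to 694 CPM at low yield. Singly, 7 of the 8 markers were higher at high yield in Gir, and CX3CR1 was lower (-0.02 ± 0.62, SE). CD14, the lipopolysaccharide coreceptor that defines classical monocytes, averaged 49.3 ± 11.6 CPM in Gir at high yield and 26.3 ± 4.84 CPM at low yield (SD, n = 3 each). It was the only 1 of the 8 with an unadjusted edgeR p under 0.05 in Gir. In Shweta Kapila the CD14 difference was -0.11 ± 0.38 (SE). BATF3 and the markers had r = 0.67 over the 12 cows (permutation p = 0.0154, adjusted p = 0.133) and rho = 0.783 (permutation p = 0.004, adjusted p = 0.06), with r = 0.717 without the 2 cows farthest from the median. Within the breeds r was 0.851 in Gir and 0.681 in Shweta Kapila (exact permutation p = 0.0278 and 0.135, adjusted p = 0.494 and 0.379). With the monocyte markers as a covariate the BATF3 difference in Gir was 0.84 in place of 1.17.

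The receptors of type 1 conventional cells were near the limit of these libraries. XCR1, the receptor for the chemokine XCL1, was carried by 10 to 45 counts a library. It stood at 0.581, 1.96 and 2.32 CPM in high-yielding Gir, 1.09, 1.15 and 0.478 CPM in low-yielding Gir, 1.14, 0.693 and 0.859 CPM in high-yielding Shweta Kapila and 0.934, 0.460 and 0.628 CPM in low-yielding Shweta Kapila. High-yielding Gir held both of the values above 1.15 CPM but also one of the 3 lowest, and all groups overlapped. The difference was 0.84 ± 0.57 in Gir (SE, unadjusted p = 0.165, edgeR adjusted p = 1) and 0.40 ± 0.58 in Shweta Kapila (edgeR adjusted p = 0.8). CLEC9A, a receptor for actin exposed by dead cells, had 45 counts over the 12 libraries. It had 10, 4 and 4 counts in high-yielding Gir, 4, 1 and 4 in low-yielding Gir, 4, 6 and 2 in high-yielding Shweta Kapila and 0, 4 and 2 in low-yielding Shweta Kapila. The count of 0 allows a level of up to 0.133 CPM (3 counts, for counting error only), and differences in CLEC9A were not detectable at this depth.

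LAMP3, a lysosomal membrane protein known from mature dendritic cells and also induced by interferon, was the member that separated the breeds. The high-yielding Gir cows had 438, 395 and 396 CPM and the low-yielding Gir cows 487, 457 and 465 CPM. The high-yielding Shweta Kapila cows had 540, 607 and 749 CPM and the low-yielding ones 912, 695 and 527 CPM. All 6 Shweta Kapila cows lay above all 6 Gir cows, a separation in this direction seen in 0.337% of all genes tested. The breed means were 440 ± 37.6 and 672 ± 146 CPM (SD, n = 6 each), a Gir-minus-Shweta Kapila difference of -0.61 ± 0.16 log2 units (SE, unadjusted p = 0.00239, edgeR adjusted p = 0.291). DESeq2 gave -0.60 with an adjusted p of 0.0348. Without the third low-yielding Shweta Kapila cow, edgeR gave -0.70 with an adjusted p of 0.0297. That cow had the lowest LAMP3 level of its breed, so leaving it out widens the difference by construction. The high-yielding Gir cows also lay below the low-yielding ones without overlap, as 5.06% of all genes did, at a difference of -0.20 ± 0.23 (edgeR adjusted p = 1). In Shweta Kapila the groups overlapped, with a difference of -0.17 ± 0.23 (edgeR adjusted p = 0.782). LAMP3 thus had the group order high-yielding Gir, low-yielding Gir, high-yielding Shweta Kapila, low-yielding Shweta Kapila, of which only the last 2 groups overlapped.

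CCR7, the chemokine receptor that brings mature dendritic cells and naive T cells into lymph nodes, had the opposite breed difference. The Gir cows had 209, 281 and 364 CPM at high yield and 393, 319 and 243 CPM at low yield. The Shweta Kapila cows had 259, 214 and 163 CPM at high yield and 114, 162 and 240 CPM at low yield. Gir cows were the higher in 32 of 36 pairs, but the breeds overlapped between 209 and 259 CPM. The breed means were 301 ± 70.9 and 192 ± 54.8 CPM (SD, n = 6 each), a difference of 0.66 ± 0.22 log2 units (SE, unadjusted p = 0.012, edgeR adjusted p = 0.385). The yield differences were -0.16 ± 0.31 in Gir and 0.30 ± 0.32 in Shweta Kapila (edgeR adjusted p = 1 and 0.728).

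CCR7 did not follow naive T cell markers in 1 direction: r was 0.788 in Gir and -0.782 in Shweta Kapila (exact permutation p = 0.0708 and 0.0681, adjusted p = 0.494 and 0.236). With neutrophil markers CCR7 had r = 0.802 over the 12 cows (permutation p = 0.00165, adjusted p = 0.0511 over the 36 added relations), rho = 0.825 (permutation p = 0.00169, adjusted p = 0.0608) and r = 0.805 without the 2 cows farthest from the median. Within the breeds that r was 0.787 in Gir and 0.600 in Shweta Kapila (exact permutation p = 0.0597 and 0.196, adjusted p = 0.685 and 0.542). LAMP3 had r = -0.345 and -0.528 with the neutrophil markers in Gir and Shweta Kapila, and -0.417 and -0.726 with the platelet markers (exact permutation p from 0.107 to 0.514). The 7 summed neutrophil markers ran from 2015 to 4194 CPM in Gir and from 1275 to 4257 CPM in Shweta Kapila, and the part of these cells in the CCR7 and LAMP3 differences was not tested.

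Within Shweta Kapila the 2 maturation genes ran against each other. Over its 6 cows LAMP3 and CCR7 had r = -0.986 (exact permutation p = 0.00556, adjusted p = 0.1 over 36 pairs), rho = -0.886, and r = -0.976 without the 2 cows farthest from the median. Over the 6 Gir cows r was 0.0652 (exact permutation p = 0.886). No pooled value is given because LAMP3 separates the breeds. Both genes also moved with library properties in Shweta Kapila: the share of counts on 7- and 8-digit identifiers had r = 0.891 with LAMP3 and r = -0.939 with CCR7 (exact permutation p = 0.0264 and 0.00694, adjusted p = 0.148 and 0.0938), with rho of 0.771 and -0.943. The log2 library total had r = 0.918 and rho = 0.943 with LAMP3 (exact permutation p = 0.0167 and adjusted p = 0.146 for r). The part of these properties in the relation was not tested. With the share as a covariate the LAMP3 breed difference was -0.52, and with the library total it was -0.46, against -0.61 without a covariate.

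**Figure D3:**
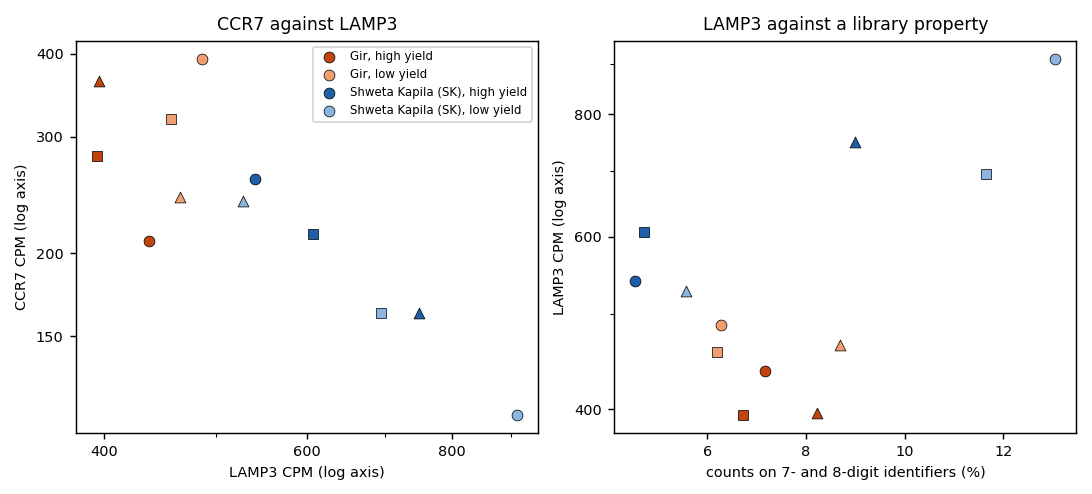
Left, CCR7 against LAMP3, both in CPM on logarithmic axes; right, LAMP3 in CPM (logarithmic axis) against the percentage of counts on 7- and 8-digit identifiers, a point per cow, coloured by breed and yield (SK for Shweta Kapila). The 6 Shweta Kapila cows fall on a descending line in the left panel (r = -0.986) and the 6 Gir cows do not (r = 0.0652).

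Read together, none of the 9 tested genes passed edgeR's test at a false discovery rate of 0.05 in any of 5 comparisons, and neither did any of the 15420 genes (0% in each). At an unadjusted p under 0.05, the count for yield in Gir was 1 of 9 genes (BATF3, higher at high yield), against 1.89% of all genes. In Shweta Kapila it was 2 of 9 (FLT3 and TCF4, both lower at high yield) against 6.98%, and over both breeds 2 of 9 (BATF3 higher, TCF4 lower) against 4.13%. For the difference between the breeds' yield effects it was 1 of 9 (FLT3) against 3.81%, and for breed 3 of 9 (FLT3 and CCR7 higher in Gir, LAMP3 lower) against 9.57%. With so few genes, chosen with earlier results of these data known, these shares are set side by side and not tested. They also rest on a spread shared by both breeds. The median within-group SD of log2 CPM was 0.296 in Gir and 0.559 in Shweta Kapila. With each breed fitted alone, 770 of 14714 genes had such a p in Gir and 441 of 14787 in Shweta Kapila. The shared fit had 291 and 1077 of 15420. FLT3 in Shweta Kapila was then, fitted alone, at -0.96 ± 0.49 and TCF4 at -1.34 ± 0.36 (SE, edgeR adjusted p = 0.916 each). By other tools, DESeq2 called LAMP3 alone, for breed, where it called 1.26% of all genes. The limma-voom test with sample weights, which gave the third low-yielding Shweta Kapila cow a weight of 0.184 and the second a weight of 6.62, called FLT3 and TCF4 by yield in Shweta Kapila (adjusted p = 0.0146 and 0.00576), where it called 25.3% of all genes. It also called TCF4 over both breeds (adjusted p = 0.0319, with 8.36% of all genes called), FLT3 and TCF4 for the difference between the breeds' yield effects (adjusted p = 0.0305 and 0.0357, with 8.57%), and SPIB, LAMP3 and CCR7 by breed (limma adjusted p = 0.0194, 0.00662 and 0.0136, with 16.7%).

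By sign, 5 of 9 genes were higher at high yield in Gir, with a median of 0.043 log2 units, and 3 of 9 in Shweta Kapila, with a median of -0.30, while the medians over all genes were -0.015 and -0.023. Between breeds, 8 of 9 genes, all but LAMP3, had the higher fitted level in Gir, where 45.1% of all genes did, with a median of 0.31 against -0.043 over all genes. The direction for TCF4 and BATF3 in that count was not stable, as their breed differences of 0.18 and 0.065 changed sign in other settings.

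**Figure D4:**
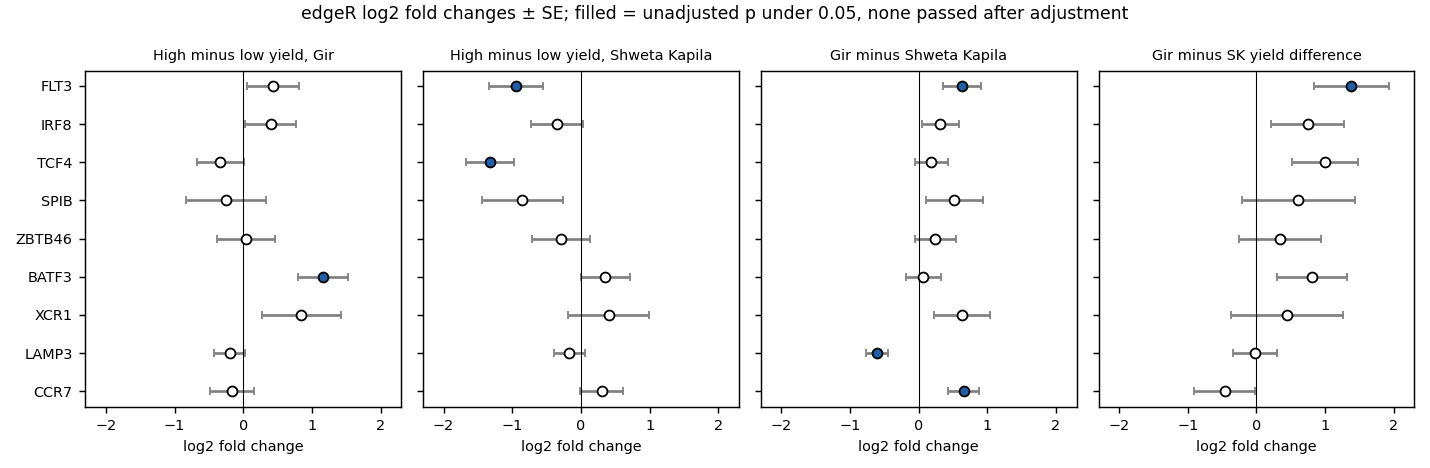
Fitted log2 fold changes with SE (horizontal axes) of the 9 tested genes (rows) for yield in Gir, yield in Shweta Kapila, breed, and the yield difference in Gir minus that in Shweta Kapila (SK). Filled points have an unadjusted p under 0.05, and none passed after adjustment over all genes. They run from FLT3 at 1.38 for the yield difference in Gir minus that in Shweta Kapila to TCF4 at -1.33 for yield in Shweta Kapila.

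The genes differed in how far cows of 1 group varied. The within-group SD of log2 CPM was 0.861 for SPIB, above 98.5% of the 1000 tested genes nearest to it in level, and 0.236 for LAMP3, above 21.5% of its nearest. The remaining tested genes lay between 0.370 for BATF3 and 0.647 for XCR1, around the median of 0.478 over all tested genes. The spread of SPIB was 0.385 in Gir and 1.16 in Shweta Kapila, and that of LAMP3 was 0.0680 and 0.326, where the medians over all genes were 0.296 and 0.559. BATF3, TCF4 and XCR1 went the other way, with the wider spread in Gir: 0.475 against 0.218 for BATF3, 0.498 against 0.418 for TCF4 and 0.829 against 0.387 for XCR1. From the lowest to the highest cow, SPIB spanned 8.72-fold and LAMP3 2.31-fold, with the other tested genes in between.

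Across cows, few of the 36 pairs of genes varied together. SPIB and IRF8 had r = 0.807 over the 12 cows (permutation p = 0.00161, adjusted p = 0.029) and rho = 0.825 (permutation p = 0.00173, adjusted p = 0.0623), and r = 0.655 without the 2 cows farthest from the median. Within the breeds r was 0.946 in Shweta Kapila (exact permutation p = 0.00556, adjusted p = 0.1) and 0.13 in Gir (exact permutation p = 0.8), and this difference was not tested. LAMP3 ran against SPIB in Shweta Kapila, with r = -0.854 (exact permutation p = 0.0222, adjusted p = 0.267), and at -0.0313 in Gir. BATF3 and XCR1, both of the type 1 lineage, had r = 0.709 over the 12 cows (permutation p = 0.00929, adjusted p = 0.056) and r = 0.323 without the 2 cows farthest from the median. In Gir it was 0.748 and 0.024 without 2 cows, on which it rested, and in Shweta Kapila it was 0.815 and, without 2 cows, 0.850 (exact permutation p = 0.107 and 0.0444, adjusted p = 0.594 and 0.267). The closest pairs in Gir were FLT3 and IRF8 (r = 0.897), BATF3 and LAMP3 (r = -0.870) and TCF4 and ZBTB46 (r = -0.846), with exact permutation p = 0.0556, 0.0319 and 0.0403 and adjusted p = 0.594 each. Each of these rested on 2 cows, with r = -0.438, -0.236 and 0.458 without them, and was -0.452, -0.311 and 0.639 in Shweta Kapila. TCF4 and SPIB, both of the plasmacytoid lineage, had r = 0.365, and TCF4 and IRF8 r = 0.139. Within a breed, no pair of genes passed the adjustment over 36 pairs.

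**Figure D5:**
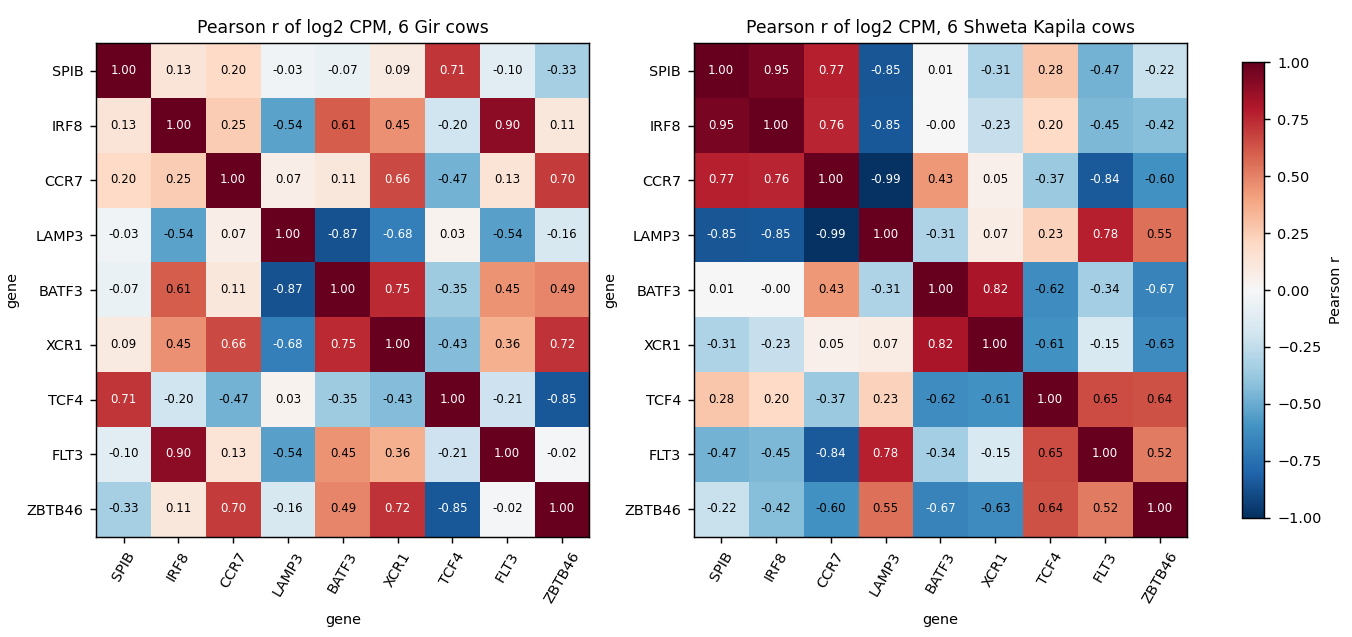
Pearson r of log2 CPM between each pair of the 9 tested genes (rows and columns) over the 6 Gir cows (left) and the 6 Shweta Kapila cows (right), with the scale from -1 (blue) to 1 (red). In Shweta Kapila, SPIB and IRF8 vary together (r = 0.946) and against LAMP3, which mirrors CCR7 (r = -0.986), while in Gir the closest pairs are FLT3 with IRF8 (r = 0.897) and BATF3 with LAMP3 (r = -0.870).

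The genes whose log2 CPM followed each member most closely were searched among 11896 tested genes with a symbol, over the 12 cows. They were ZFHX2 for SPIB (r = 0.977, rho = 0.951), LRRC8C for LAMP3 (r = 0.962, rho = 0.951), ZC4H2 for FLT3 (r = 0.962, rho = 0.909), HADH for CCR7 (r = 0.947, rho = 0.916) and REPIN1 for IRF8 (r = 0.940, rho = 0.923). For TCF4 they were KLF5 (r = 0.938), BANK1, a B cell adaptor (r = 0.936), and SP110 (r = 0.932). The closest genes to the members with few counts were less close: RAPGEF2 for ZBTB46 (r = 0.885), FZD4 for BATF3 (r = 0.863, rho = 0.601) and OTOA for XCR1 (r = 0.855, rho = 0.706). LAMP3 separates the breeds, so its r over the 12 cows includes that difference. By deviations from the group means, LAMP3 and LRRC8C had r = 0.914.

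Other dendritic cell genes were read from lists drawn up by role, with earlier results of these data known. Of 15 other transcription factors of dendritic development, 14 were tested, and all 14 had a fitted difference below 0 for high against low yield in Shweta Kapila, at a median of -0.30, where 48.3% of all genes were above 0. In Gir 9 of 14 were above 0, at a median of 0.11, where 47.4% of all genes were. Their signs were not tested as a list. For yield within either breed, only BCL11A, a zinc finger factor of plasmacytoid and B cells, had an unadjusted p under 0.05. Its Shweta Kapila mean was 26.7 ± 4.86 CPM at high yield and 63.9 ± 17.2 CPM at low yield (SD, n = 3 each). The difference was -1.26 ± 0.33 (SE, unadjusted p = 0.00249, edgeR adjusted p = 0.575). By breed, 9 of 14 were higher in Gir, where 45.1% of all genes were. Of these, BCL6 was at 0.45 ± 0.18 (SE, unadjusted p = 0.0246, edgeR adjusted p = 0.457) and BCL11A at 0.59 ± 0.23 (unadjusted p = 0.0263, edgeR adjusted p = 0.463).

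Of 15 plasmacytoid symbols, 10 were matched and 9 tested. IL3RA, CLEC4C, LILRA4, IRF7 and PLD4 were not matched. Of the 9 genes tested, 8 were lower at high yield in Shweta Kapila, at a median of -0.64, and 3 of them had an unadjusted p under 0.05. These were BCL11A, BLNK, an adaptor of B cell receptor signalling (-1.25 ± 0.29, SE, unadjusted p = 0.000921), and TLR7, a sensor of single-stranded RNA (-0.83 ± 0.35, unadjusted p = 0.0371), and none passed edgeR's test (adjusted p = 0.575 for BLNK and 0.655 for TLR7). The BLNK mean in Shweta Kapila was 34.5 ± 3.03 CPM at high yield and 82.1 ± 12.3 CPM at low yield (SD, n = 3 each). Of all genes, 48.3% were higher at high yield in Shweta Kapila, and 6.98% had an unadjusted p under 0.05 in either direction. The B cell markers were on the same side: 10 of 11 were lower at high yield, at a median of -0.88, and 5 had an unadjusted p under 0.05, while 13 of 14 T cell markers were higher, at a median of 0.70. In Gir, 4 of 9 plasmacytoid genes were higher at high yield, at a median of -0.020.

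Of 13 other genes of type 1 conventional cells, 10 were lower at high yield in Shweta Kapila, at a median of -0.24. THBD, thrombomodulin, was at -0.73 ± 0.28 (SE, unadjusted p = 0.0241) and WDFY4, needed for cross-presentation, at -0.89 ± 0.40 (unadjusted p = 0.0453), both with an edgeR adjusted p of 0.655. In Gir, 8 of 13 were higher, at a median of 0.17, and RAB7B, a GTPase of endosome traffic, was at 33.5 ± 1.73 against 15.1 ± 2.85 CPM (SD, n = 3 each), a difference of 1.14 ± 0.40 (SE, unadjusted p = 0.0138, edgeR adjusted p = 1). Between breeds, 6 of 13 were higher in Gir. At an unadjusted p under 0.05, 2 were higher in Gir and 3 lower, where 9.57% of all genes had such a p in either direction. The higher ones were WDFY4 (0.74 ± 0.28, SE, unadjusted p = 0.0215, edgeR adjusted p = 0.431) and THBD (0.51 ± 0.20, unadjusted p = 0.024, edgeR adjusted p = 0.452). The lower ones included CLNK (-0.90 ± 0.36, unadjusted p = 0.0258, edgeR adjusted p = 0.457) and IDO1. IDO1, an interferon-induced enzyme of tryptophan breakdown, had a Gir-minus-Shweta Kapila difference of -1.26 ± 0.39 (SE, unadjusted p = 0.00725, edgeR adjusted p = 0.335), with means of 679 ± 479 and 1068 ± 435 CPM in the high-yielding and low-yielding Gir cows against 1945 ± 346 and 2155 ± 1283 CPM in the Shweta Kapila cows (SD, n = 3 each).

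Of 14 symbols for type 2 conventional cells, 7 were matched and 6 tested. CLEC10A, ITGAX, CD1A, CD1B, CD1E, CD209 and CD33 were not matched. All 6 genes tested were below 0 for high against low yield in Shweta Kapila, at a median of -0.37. In Gir 5 were above 0, at a median of 0.49, and none had an unadjusted p under 0.05 in either breed. By breed, SIRPA, an inhibitory receptor also carried by monocytes and neutrophils, was at 0.57 ± 0.20 in Gir minus Shweta Kapila (SE, unadjusted p = 0.014, edgeR adjusted p = 0.399). Among growth factor receptors, CSF2RB, the common chain for GM-CSF, was at 0.54 ± 0.19 (unadjusted p = 0.0132, edgeR adjusted p = 0.397).

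Among 19 tested maturation genes beside LAMP3 and CCR7, 10 were higher at high yield in Gir and 7 in Shweta Kapila, with medians of 0.0047 and -0.17. The only 1 with an unadjusted p under 0.05 in Gir was IL12B, a subunit of interleukin 12, at 1.79 ± 0.810 against 0.218 ± 0.197 CPM (SD, n = 3 each), a fitted difference of 3.00 ± 0.81 log2 units (SE, unadjusted p = 0.00277, edgeR adjusted p = 1). It rests on 33, 17 and 49 counts against 4, 0 and 8, so the lower group is near the limit of 3 counts and the size of the difference depends on the fit. In Shweta Kapila, TRAF1 was at 0.98 ± 0.43 and SOCS2 at -1.04 ± 0.47 (SE, edgeR adjusted p = 0.655 for each). By breed, 8 of 19 were higher in Gir and none had an unadjusted p under 0.05. CCL17, CCL19 and CCL22, chemokines of mature dendritic cells, did not pass the filter.

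Of the ligands and binding partners of the 10 genes, 13 were tested. Between breeds, 8 of 13 were higher in Gir, at a median of 0.067. At an unadjusted p under 0.05, 1 was higher in Gir and 1 lower, where 9.57% of all genes had such a p in either direction. The higher one was SYK, at 0.51 ± 0.22 (SE, unadjusted p = 0.0356, edgeR adjusted p = 0.487), and the lower one was BATF. BATF, which can stand in for BATF3 and is known from activated T and B cells, had a lower fitted level in Gir: its means were 32.4 ± 5.21 and 40.1 ± 8.13 CPM in the high-yielding and low-yielding Gir cows and 77.8 ± 27 and 44.3 ± 10.6 CPM in the Shweta Kapila cows (SD, n = 3 each), a breed difference of -0.70 ± 0.21 (SE, unadjusted p = 0.00627, edgeR adjusted p = 0.325). The low-yielding groups of the breeds were close, and the yield difference was 0.81 ± 0.30 in Shweta Kapila (unadjusted p = 0.0198, edgeR adjusted p = 0.655), with -1.12 ± 0.43 for Gir minus Shweta Kapila (unadjusted p = 0.0221, edgeR adjusted p = 0.955). T cell markers were on the same side, with 13 of 14 lower in Gir, at a median of -0.43, and CD3E, a chain of the T cell receptor complex, ranged from 531 to 1574 CPM. Of 13 class II presentation symbols only 5 were matched, among them CD74, the invariant chain, and CIITA, the class II transactivator. All 5 were above 0 for high against low yield in Gir, at a median of 0.16, and below 0 in Shweta Kapila, at a median of -0.46, and none had an unadjusted p under 0.05.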

How the data were processed

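RNA from blood of 12 cows was sequenced from rRNA-depleted, strand-marked libraries, per the labels' protocols. Reads were handled with Trimmomatic and FastQC, per the submitters' processing notes. Neither aligner nor counter, and no strand setting, build or annotation, is given in the sources used here. The authors deposited a table of expected counts per gene, since 57.0% of its values are not whole (tolerance 1e-06). They were rounded to whole counts. Identifiers were named from RefSeq's gene table of the assembly NIAB-ARS_B.indTharparkar_mat_pri_1.0, which matched 22754 of 26229 (86.8%), and no coordinates were taken from it.

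Genes were filtered with edgeR's filterByExpr (minimum count 10, minimum total 15), scaled by TMM and tested with edgeR's robust quasi-likelihood test, 2-sided, in 1 model with a mean for each of 4 groups. P-values were adjusted by Benjamini-Hochberg over the 15420 genes tested, at a false discovery rate of 0.05. The 5 contrasts were yield within each breed, yield over both, the difference between the breeds' yield effects, and breed. Log2 CPM used a prior count of 2. Permutation tests used 100000 draws for 12 cows and all 720 orders for 6 cows. The fit was tested on simulated data. Replicates differed by far more than sampling noise.

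The text names all 10 members and the tested genes whose log2 CPM followed each member most closely. From the lists it names some genes with an unadjusted p under 0.05 (at most the 4 of lowest p) and defining markers of other cell types. Not every gene or contrast with such a p is named. The members and lists were chosen with earlier results of these data known. Alternatives were DESeq2, limma-voom with sample weights, RLE scaling, other filters, a replicate block, each breed alone, each cow left out and 5 covariates. Versions were R 4.3.3, edgeR 4.0.16, limma 3.58.1, DESeq2 1.42.0, Python 3.11.15, NumPy 2.4.6, pandas 2.3.3, SciPy 1.17.1 and matplotlib 3.10.9.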

Additional observations from a re-analysis of the deposited data

Results flagged for a closer look

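Each of the 10 genes was checked in each breed for a cow far from the other 5, by the gap to the nearest cow as a share of the whole range (Dixon's ratio, against its 95% critical value for 6 cows). Of 20 checks, 2 passed, and chance passes about 1 in 20. TCF4 in Gir had a ratio of 0.640, from the third low-yielding cow at 222 CPM against 134 CPM in the next. SPIB in Shweta Kapila had a ratio of 0.744, from the third low-yielding cow at 584 CPM against 199 CPM in the next. These 2 cows also held the highest B cell marker sums of their breeds, at 2425 and 3304 CPM, and the part of those cells in the levels was not tested.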

How the results depend on the processing

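The 45 fold changes of the 9 tested genes were recomputed under 24 alternatives: 1000 of 1053 values kept their direction, 53 did not, and 24 of 45 fold changes kept it throughout, among them FLT3 and TCF4 in Shweta Kapila, BATF3 in Gir, and LAMP3, CCR7, FLT3 and SPIB by breed. The cause of the changes was not tested. Against 0 genes called by edgeR, DESeq2 called 1 by yield in Gir, 62 by yield in Shweta Kapila, 4 over both breeds, 9 for the difference between breeds and 195 by breed, and limma-voom with sample weights called 1, 3908, 1289, 1321 and 2580. By breed, 3 genes were called with no filter, 24 with the share of 7- and 8-digit identifiers as a covariate and 53 with the library total, which also gave 1 by yield in Shweta Kapila. Leaving out a cow gave 0 to 447 genes by breed (447 without the third low-yielding Shweta Kapila cow), 0 to 2 by yield in Shweta Kapila and 0 to 1 for the difference between breeds. Yield differences in Gir turned to -0.20 (FLT3), 0.21 (SPIB) and -0.026 (ZBTB46) with monocyte markers as a covariate, to -0.030 (ZBTB46) with the library total and to 0.010 (LAMP3) with naive T cell markers. In Shweta Kapila they turned to 0.26 (IRF8) and 0.68 (SPIB) with B cell markers, and to 0.18 (LAMP3) and -0.15 (CCR7) with the share. Over both breeds they turned to 0.069 (FLT3), -0.21 (IRF8) and -0.12 (CCR7) with the share, to -0.10 (IRF8) and 0.10 (ZBTB46) with naive T cell markers and to 0.32 (SPIB) with B cell markers. The difference between breeds turned to -0.031 (limma-voom), -0.72 (B cell markers) and -0.62 (naive T cell markers) for SPIB, to 0.0018 (DESeq2 and RLE scaling), 0.11 (B cell markers) and 0.17 (naive T cell markers) for LAMP3, and to 0.056 (share) for CCR7. By breed TCF4 turned to -0.016 (B cell markers) and BATF3 to -0.081 (monocyte markers). Leaving out a cow turned the following, with their ranges: in Gir TCF4 (-0.61 to 0.10), ZBTB46 (-0.18 to 0.25) and CCR7 (-0.38 to 0.018); in Shweta Kapila IRF8 (-0.62 to 0.18), SPIB (-1.32 to 0.41), ZBTB46 (-0.82 to 0.034) and LAMP3 (-0.35 to 0.039); over both breeds IRF8 (-0.11 to 0.29), SPIB (-0.78 to 0.082), ZBTB46 (-0.39 to 0.037) and CCR7 (-0.048 to 0.23); for the difference between breeds SPIB (-0.66 to 1.06) and LAMP3 (-0.24 to 0.15); by breed TCF4 (-0.030 to 0.36) and BATF3 (-0.11 to 0.20).

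Cows with the same replicate number are different animals, and their deviations had a median r of -0.0523 (18 pairs, -0.558 to 0.339), against 0.0289 for other numbers (36 pairs), with 3 of 12 cows closest to their own number. With the number as a replicate block, TCF4 in Shweta Kapila was at -1.37 (edgeR adjusted p = 0.433) and 1 gene was called by breed. Depth limits XCR1 and CLEC9A, with at most 45 and 10 counts a library.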
